A study of Mus musculus with 80 samples.

Results

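The collagen genes of mouse liver were taken as every gene whose symbol is Col, a number, the letter a and a further number. This pattern found 41 genes among 19995 gene symbols in the tables of both chemicals. The pattern matched 39 of 18877 genes measured for DEHP and 40 of 17672 for DCA, and 38 stood in both. Col19a1 was listed for DEHP alone, and Col9a2 and Col10a1 for DCA alone. By chain family, 10 were fibrillar, 6 basement membrane, 2 multiplexin, 7 of the collagen VI family, 8 fibril-associated (FACIT), 3 short network, 4 transmembrane and 1, Col7a1, was of none of these.

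The livers came from 4-week-old male B6C3F1 mice, a hybrid mouse strain. DEHP, di(2-ethylhexyl)phthalate, is a plasticiser that activates the nuclear receptor PPARalpha in rodent liver. It was fed for 7 days at 0, 1500, 3000 or 6000 ppm (n = 4 animals a dose, collected in 2013). DCA, dichloroacetic acid, is a by-product of water chlorination that blocks pyruvate dehydrogenase kinase. The animals drank it in their water at 0, 1, 2 or 3.5 g/L (n = 6 animals a dose, collected in 1994, duration not given in the sources used here). Each of the 16 DEHP and 24 DCA animals gave 1 library from frozen liver of mixed lobes and 1 from formalin-fixed, paraffin-embedded (FFPE) liver, 80 libraries in all. The FFPE tissue was of named lobes (left lateral, caudate and right medial for DEHP, left lateral and right medial for DCA), so that preparation and lobe cannot be told apart.

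Collagens are trimers of chains that carry long repeats of glycine and proline. Fibrillar chains (types I, III, V) assemble into the rope-like fibres of portal tracts and of the space of Disse, type IV chains form the sheet of basement membranes, type VI chains form beaded filaments, and FACIT chains such as type XII and XIV sit on the surface of type I fibres. In liver, hepatic stellate cells and portal fibroblasts make most of the fibrillar chains, sinusoidal endothelium and stellate cells make type IV, and hepatocytes themselves make type XVIII, whose end fragment is endostatin. A healthy liver holds little of these fibres, and they accumulate in fibrosis.

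The libraries held 16582951 to 29550616 counts for frozen DEHP liver, 11673034 to 18866106 for FFPE DEHP liver, 3067666 to 16890024 for frozen DCA liver and 109292 to 8434613 for FFPE DCA liver, where 23 of 24 were under 5000000. Levels are given in CPM, the count of a gene relative to the total of its library, scaled within each chemical and preparation by the TMM method of edgeR, or as the authors' FPKM where genes are set against each other, since FPKM divides by length. A gene was called where the quasi-likelihood test of edgeR gave an adjusted p under 0.05 over all genes tested. The same 27 collagens had enough counts to be tested in frozen DEHP, FFPE DEHP and frozen DCA liver, 10 of them were tested in FFPE DCA liver, and 14 were tested for dose in no set. As a check of the tissue, 10 hepatocyte marker genes summed to between 37196 and 137224 CPM in every library of the first 3 sets, and none of them was at 0 in a dose group.

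In control livers most collagen message was Col18a1. It stood at 119 ± 19.7 FPKM (SD, n = 4) in frozen DEHP controls, 68.3% of the FPKM of all collagens, at 160 ± 22.9 FPKM (SD, n = 4) or 71.8% in their FFPE livers, and at 202 ± 22.2 FPKM (SD, n = 6) or 61.0% in frozen DCA controls. In frozen DEHP controls it was followed by Col14a1, the FACIT type XIV chain, at 12 ± 1.37 FPKM, Col4a1 at 7.57 ± 2.61, Col3a1 at 6.53 ± 1.27, Col5a3 at 5.22 ± 1.94 and Col27a1 at 5.04 ± 2.55 (SD, n = 4). The ranges of the last 4 overlapped, so their order was not resolved. In frozen DCA controls Col3a1, the type III chain of reticular fibres, came second at 29.8 ± 5.73 FPKM, then Col14a1 at 19.5 ± 1.26, Col4a1 at 19.3 ± 1.68, Col4a2 at 12.7 ± 1.49 and Col1a2 at 11.5 ± 3.86 (SD, n = 6), while Col27a1 stood at 2.36 ± 0.865 FPKM. The 2 sets of controls differ in year and in the codes of their column headings as well as in the animals, and were not tested against each other.

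**Figure D1:**
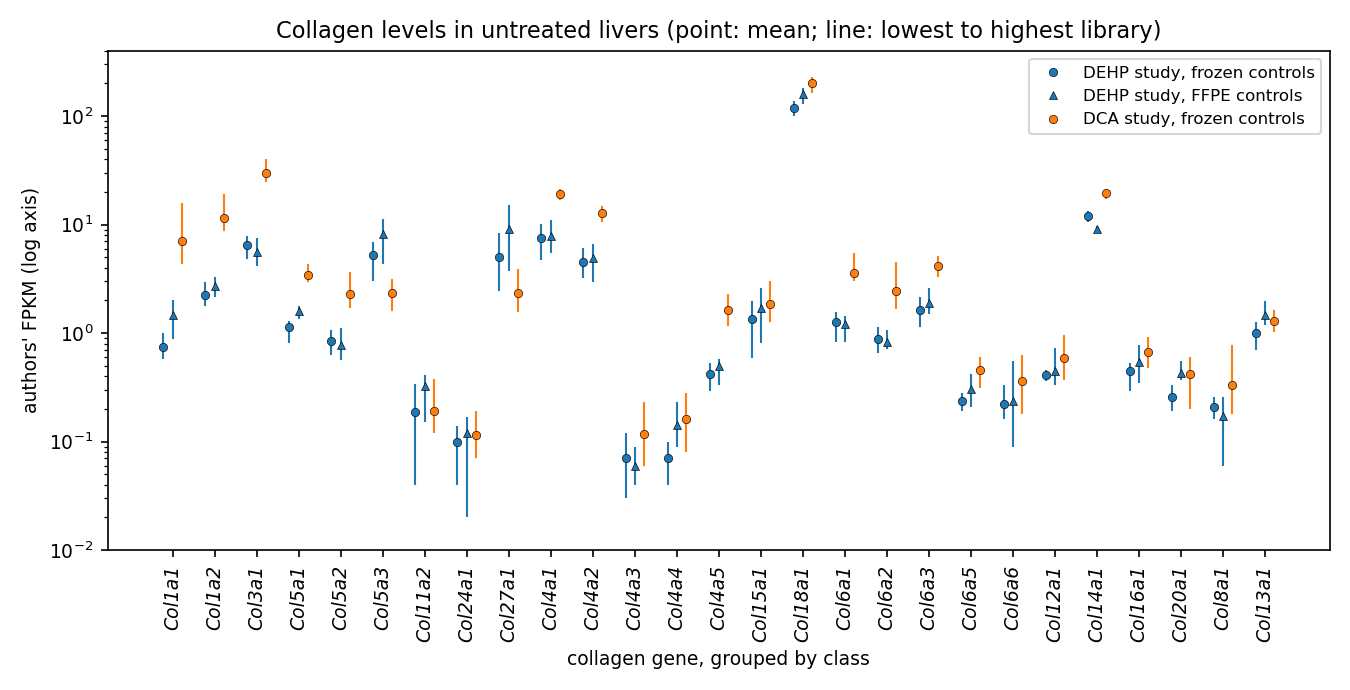
Level of the 27 tested collagen genes in control livers, in the authors' FPKM on a log axis, for frozen DEHP (n = 4), FFPE DEHP (n = 4) and frozen DCA controls (n = 6). Points are means and lines run from the lowest to the highest library. Col18a1 lies above all other collagens in each set.

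Few collagens changed with DEHP, and in opposite directions. Col27a1, a long fibrillar chain best known from cartilage, fell at every dose in frozen and FFPE liver. Col5a3, a type V chain, fell at 3000 and 6000 ppm in both, and Col12a1, the FACIT type XII chain, rose at every dose in both. In frozen liver 2 of 27 collagens were called at 1500 ppm, where 6.48% of all genes were (1 up and 1 down, against 4.34% and 2.14% of all genes). At 3000 ppm 5 of 27 were called against 14.7% of all genes (1 up and 4 down, against 8.17% and 6.48%). At 6000 ppm 5 of 27 were called against 11.8% (3 up and 2 down, against 7.05% and 4.72%). In FFPE liver 2 of 27 were called at 1500 ppm against 5.86% of all genes (1 up and 1 down, against 4.55% and 1.31%). At 3000 ppm it was 3 of 27 against 9.39% (1 up and 2 down, against 6.15% and 3.24%), and at 6000 ppm 4 of 27 against 12.4% (2 up and 2 down, against 7.94% and 4.43%). A linear trend on dose was called for 2 of 27 in frozen liver, where 2.61% of all genes were, and for 2 of 27 in FFPE liver, where 3.59% were. The shares of the collagens at the doses, 7.41% to 18.5%, are near those of all genes and say nothing of collagens as a group. The median log2 fold change over the 27 collagens at 6000 ppm was 0.17 in frozen and 0.29 in FFPE liver, beside -0.03 and -0.01 over all genes tested.

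**Figure D2:**
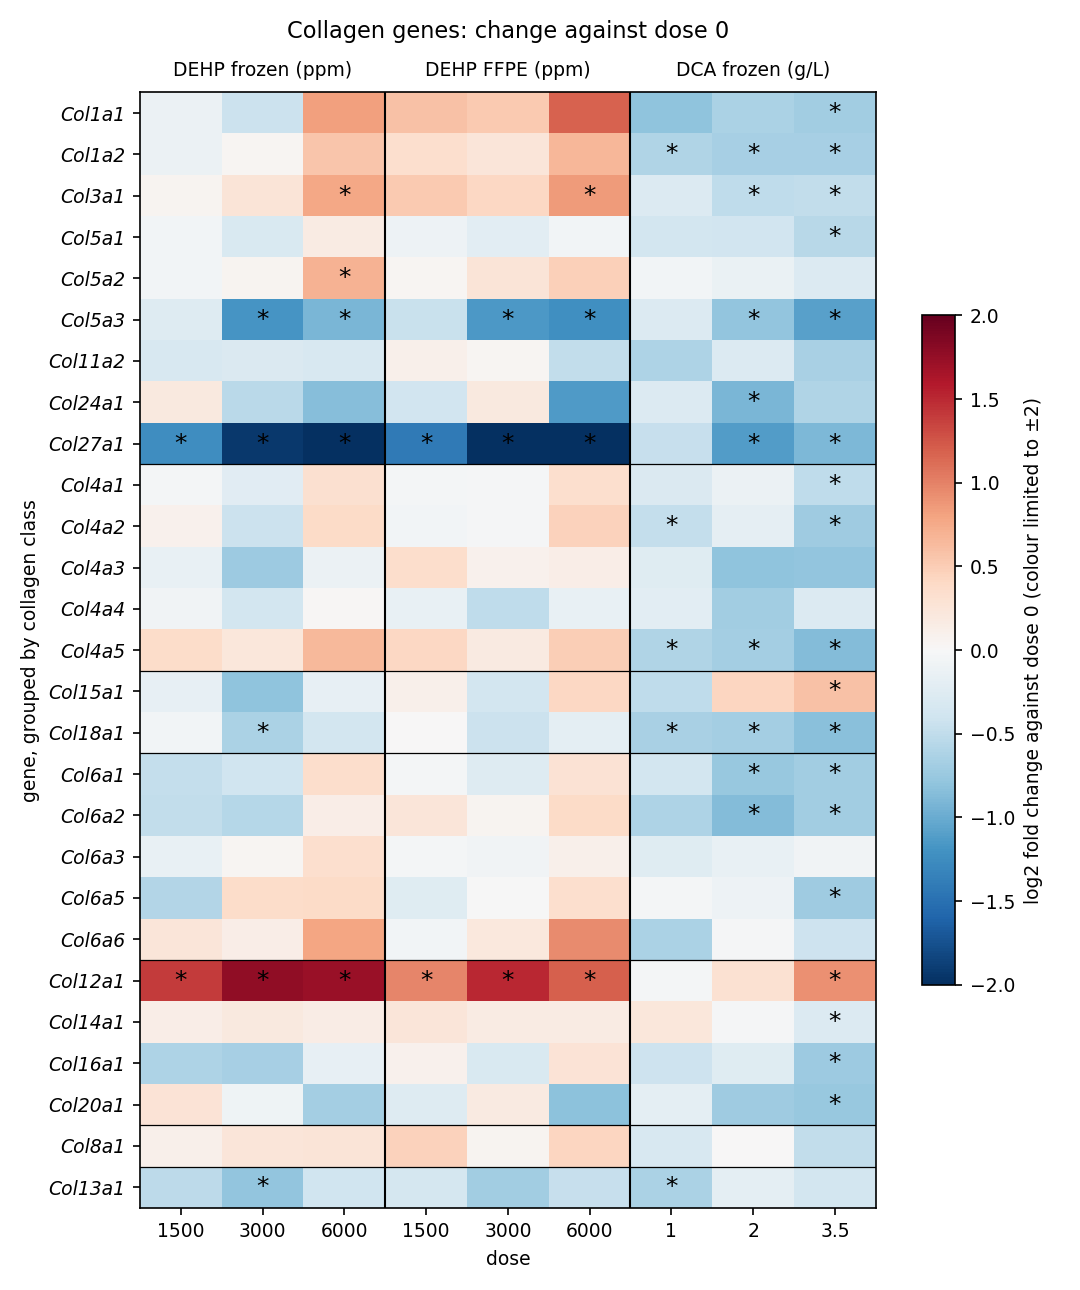
Log2 fold change against control of the 27 tested collagens (rows, by family) in the 9 dose comparisons of frozen DEHP, FFPE DEHP and frozen DCA liver (columns), with colour limited to 2 in either direction and an asterisk where the adjusted p was under 0.05. Col27a1 is negative in all 9 columns, and the column for 3.5 g/L DCA holds 25 negative values of 27.

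Among the fibrillar chains, Col27a1 moved the most. In frozen livers it stood at 13.6, 22.5, 30.7 and 45.3 CPM in the 4 controls, at 9.88, 10.6, 12.5 and 14.5 CPM at 1500 ppm, at 4.03, 6.05, 8.06 and 11.6 CPM at 3000 ppm and at 3.53, 4.30, 4.70 and 6.81 CPM at 6000 ppm. The controls spread the most, and all 8 livers at 3000 and 6000 ppm lay below the lowest control, as did 3 of 4 at 1500 ppm. The log2 fold changes were -1.24 ± 0.32 (SE, adjusted p = 0.032), -1.93 ± 0.33 (adjusted p = 0.0012) and -2.53 ± 0.34 (adjusted p = 0.00016). In FFPE liver of the same animals the controls stood at 19, 43.1, 60.1 and 83.7 CPM, and the livers at 6000 ppm at 5.98, 6.99, 7.49 and 13.4 CPM. The 4 controls came in the same order in both preparations, with animal 32A highest and 75A lowest. At each treated dose the order differed between preparations, though the highest animal was the same. The log2 fold changes in FFPE liver were -1.41 ± 0.33, -2.16 ± 0.34 and -2.61 ± 0.35 (adjusted p = 0.019, 0.00068 and 0.00011). The linear trend was called in both preparations, at -2.46 ± 0.36 (frozen, adjusted p = 0.0027) and -2.52 ± 0.38 (FFPE, adjusted p = 0.0044) over the whole dose range. The fall at 1500 ppm in frozen liver lost its call when any of 5 libraries was left out (controls 32A and 45C, and 40A, 60A and 72B at that dose, adjusted p up to 0.092, log2 -0.89 to -1.25). In FFPE liver it did so for any of 4 (45C, 40A, 60A and 72B, adjusted p up to 0.059, log2 -1.32 to -1.43).

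Col5a3 codes for a type V chain, which is incorporated into type I fibres and limits their width. Its frozen controls were at 18.5, 25.2, 40.3 and 40.6 CPM, the livers at 3000 ppm at 8.13, 14.4, 16.1 and 16.4 CPM and those at 6000 ppm at 13.5, 14.6, 17.4 and 20.7 CPM. All livers at 3000 ppm and 3 of 4 at 6000 ppm were below the lowest control. The log2 fold changes were -0.26 ± 0.25 at 1500 ppm (not called, adjusted p = 0.60), -1.18 ± 0.25 at 3000 ppm (adjusted p = 0.0053) and -0.91 ± 0.25 at 6000 ppm (adjusted p = 0.026). The fall at 6000 ppm was not called without any 1 of 5 frozen libraries (controls 32A and 63A, and 44A, 64C and 8C at 6000 ppm, adjusted p up to 0.103, log2 -0.74 to -0.94). In FFPE liver Col5a3 fell by 1.15 ± 0.23 and 1.23 ± 0.23 on the log2 scale at the upper doses (adjusted p = 0.0040 and 0.0021), and all 4 livers at 6000 ppm were below the lowest control.

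Of the chains of the common liver fibres, Col3a1 rose at 6000 ppm in both preparations. Frozen controls held 27.6, 35.7, 37.0 and 44.3 CPM of Col3a1 and the livers at 6000 ppm 47.4, 54.1, 61.4 and 83.6 CPM, with no overlap. The log2 fold change was 0.77 ± 0.21 in frozen (adjusted p = 0.024) and 0.85 ± 0.24 in FFPE liver (adjusted p = 0.028), where again all 4 treated livers lay above all controls. The call was lost without any 1 of 4 frozen libraries (controls 63A and 75A, 44A and 8C at 6000 ppm, adjusted p up to 0.106, log2 0.59 to 0.80) or any 1 of 5 FFPE libraries (32A, 45C, 63A, 44A and 8C, adjusted p up to 0.075, log2 0.72 to 0.85). The linear trend of Col3a1 on dose was also called in frozen liver. That call was lost without any 1 of 5 libraries (32A, 63A, 75A, 44A and 8C, adjusted p up to 0.142, log2 0.61 to 0.84). Col5a2, a type V chain whose gene lies 24614 bases from Col3a1 on chromosome 1, rose by 0.70 ± 0.21 in frozen liver (adjusted p = 0.040). Without any 1 of 6 libraries (controls 32A, 63A and 75A, 71A at 3000 ppm, or 44A and 8C at 6000 ppm) its call was lost (adjusted p up to 0.180, log2 0.49 to 0.73). In FFPE liver Col5a2 stood at 0.48 ± 0.23 on the log2 scale (adjusted p = 0.19). Col1a1, the first chain of type I collagen, was above every control in all 4 livers at 6000 ppm in both preparations but was not called. It stood at 4.91, 5.29, 7.06 and 8.13 CPM in frozen liver beside 2.66, 2.87, 3.78 and 4.90 CPM in controls. The log2 fold changes were 0.83 ± 0.31 (frozen, adjusted p = 0.095) and 1.19 ± 0.40 (FFPE, adjusted p = 0.058). Its partner chain Col1a2 had log2 fold changes of 0.56 ± 0.25 and 0.66 ± 0.25 (adjusted p = 0.16 and 0.087), and Col5a1 0.17 ± 0.18 and -0.05 ± 0.17.

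The start-site sequences of the called fibrillar genes are shown because Col27a1 and Col5a3 fell while Col3a1 rose. Each run below is the 250 bases before the RefSeq start in GRCm38.p6 (mm10), 5′ to 3′ on the gene's strand. Capitals mark every match, on either strand, to the TATA box TATAAA, the CCAAT box CCAAT, the GC box GGGCGG, the nuclear receptor half-site AGGTCA or the direct repeat AGGTCANAGGTCA, the form PPARalpha binds.
Col27a1: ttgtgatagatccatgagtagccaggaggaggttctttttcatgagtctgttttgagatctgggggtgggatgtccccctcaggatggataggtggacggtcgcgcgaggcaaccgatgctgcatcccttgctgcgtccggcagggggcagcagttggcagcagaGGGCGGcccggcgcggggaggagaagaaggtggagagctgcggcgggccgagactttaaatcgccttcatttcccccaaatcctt
Col5a3: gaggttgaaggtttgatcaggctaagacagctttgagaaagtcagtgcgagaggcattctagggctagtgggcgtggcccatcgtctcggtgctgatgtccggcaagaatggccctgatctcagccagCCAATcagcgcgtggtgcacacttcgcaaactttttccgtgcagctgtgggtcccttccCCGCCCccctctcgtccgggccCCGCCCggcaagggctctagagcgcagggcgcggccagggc
Col3a1: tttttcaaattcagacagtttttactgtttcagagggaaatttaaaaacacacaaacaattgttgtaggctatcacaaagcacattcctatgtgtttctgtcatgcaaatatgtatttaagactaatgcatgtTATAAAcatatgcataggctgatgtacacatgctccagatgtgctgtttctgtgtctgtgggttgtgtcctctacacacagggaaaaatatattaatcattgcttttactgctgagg
The Col27a1 window is chr4:63215162-63215411 on the plus strand, inside the annotated gene since a longer GENCODE transcript starts upstream. It holds 1 GC box, starting at -85 from the RefSeq start. The Col5a3 window is chr9:20815068-20815317 on the minus strand, with a CCAAT box at -122 and GC boxes read on the other strand at -63 and -41. The Col3a1 window, chr1:45311288-45311537 on the plus strand, holds a TATAAA at -117. RefSeq windows were found for 34 of the 41 collagens, 36 windows in all, and not for Col1a1, Col5a2 or Col12a1. GGGCGG stood in 22 of the 36 and in 32.7% of 32841 windows of all genes, CCAAT in 12 and 33.9%, AGGTCA in 7 and 14%, TATAAA in 5 and 12.4%, and the direct repeat in 0 and 0.0335%.

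Col12a1 was the 1 tested collagen that rose at every dose of DEHP in both preparations. Its frozen controls held 2.81, 2.87, 3.36 and 3.71 CPM, against 5.86 to 11.1 CPM at 1500 ppm, 9.37 to 14.2 at 3000 ppm and 6.36 to 15.1 at 6000 ppm. No treated liver overlapped the controls at any dose. The log2 fold changes were 1.40 ± 0.25, 1.78 ± 0.25 and 1.73 ± 0.25 (adjusted p = 0.0034, 0.00024 and 0.00028). In FFPE liver the controls held 2.61, 2.82, 3.00 and 3.55 CPM, and the 12 treated livers 4.05 to 13.4 CPM, again without overlap, with log2 fold changes of 0.97 ± 0.27, 1.51 ± 0.26 and 1.20 ± 0.26 (adjusted p = 0.040, 0.0015 and 0.0067). The call at 1500 ppm in FFPE liver was lost without any 1 of 8 libraries (each control, 3A, 40A and 60A at that dose, or 64C at 6000 ppm, adjusted p up to 0.124, log2 0.83 to 1.06). The other tested FACIT chains, Col14a1, Col16a1 and Col20a1, were not called at any dose, and Col14a1 had log2 fold changes of 0.14 to 0.19 in frozen and 0.16 to 0.24 in FFPE liver.

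**Figure D3:**
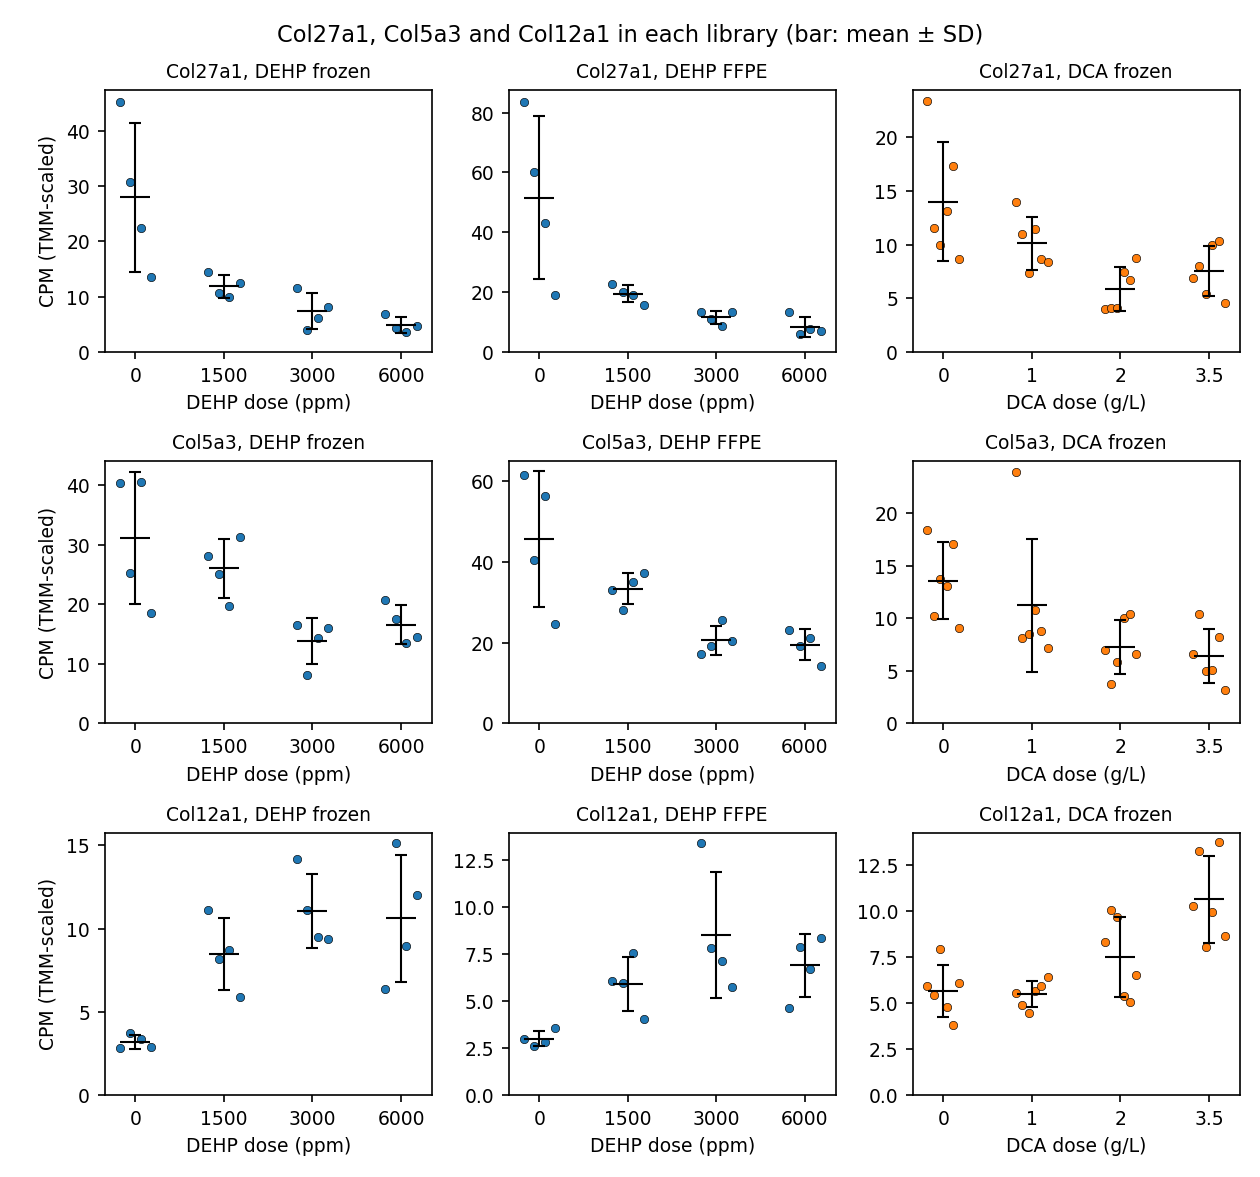
Level of Col27a1, Col5a3 and Col12a1 (rows, CPM) in every library by dose, in frozen DEHP, FFPE DEHP and frozen DCA liver (columns), 1 point a library with a bar at the group mean. Col27a1 controls of frozen DEHP liver spread from 13.6 to 45.3 CPM and the 6000 ppm livers from 3.53 to 6.81 CPM, while Col12a1 lies above its controls at each DEHP dose.

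No type IV chain was called at any DEHP dose in either preparation. Col4a1 and Col4a2, the chains of the general basement membrane, lie head to head on chromosome 8 with 22 bases of overlap. They had log2 fold changes of 0.32 ± 0.19 and 0.38 ± 0.18 at 6000 ppm in frozen liver (adjusted p = 0.32 and 0.20) and 0.33 ± 0.23 and 0.46 ± 0.27 in FFPE liver. Frozen controls of Col4a2 held 21.7, 22, 34.7 and 38.3 CPM and the 6000 ppm livers 36.2, 37.8, 38.7 and 39.8 CPM, so that the treated livers lay at the top of the control range. None of the 5 tested collagen VI family members, Col6a1, Col6a2, Col6a3, Col6a5 and Col6a6, was called either, and Col6a1 had log2 fold changes of 0.36 ± 0.24 and 0.29 ± 0.23 at 6000 ppm (frozen and FFPE). Col18a1 fell in frozen liver at 3000 ppm, from 557, 606, 704.1 and 748 CPM in controls to 289, 428, 484 and 490 CPM (log2 -0.63 ± 0.18, adjusted p = 0.024), with no overlap. The call was lost without control 63A or without 67C (adjusted p = 0.081 at most, log2 -0.48 to -0.56). At 6000 ppm it stood at 399 to 628 CPM and was not called (adjusted p = 0.20), nor was the other multiplexin, Col15a1 (-0.16 ± 0.37, and 0.42 ± 0.35 in FFPE). Col13a1, a transmembrane chain of cell adhesions, fell at 3000 ppm in frozen liver from 2.04 to 3.25 CPM in controls to 1.32 to 1.89 CPM (log2 -0.79 ± 0.22, adjusted p = 0.026). That call was lost without any 1 of 5 libraries (45C, 63A, 35A, 71A and 9A, adjusted p up to 0.096, log2 -0.68 to -0.77). Neither Col18a1 nor Col13a1 was called in FFPE liver, at -0.44 ± 0.18 for Col18a1 and -0.69 ± 0.28 for Col13a1 (adjusted p = 0.15 for each).

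Each column heading opens with a code that several libraries share, and what the code stands for is not given in the sources used here. These heading codes were spread unevenly over the DEHP doses, and each held too few libraries for a test within it. With the heading code as a term in the fit, 4 of the 14 calls in frozen liver remained, those of Col12a1 at 1500, 3000 and 6000 ppm (log2 1.56, 1.79 and 1.75) and of Col27a1 at 6000 ppm (log2 -2.19, adjusted p = 0.015). Col27a1 at 1500 and 3000 ppm then had log2 fold changes of -0.95 and -1.66 (adjusted p = 0.30 and 0.058) and its trend -1.96 (adjusted p = 0.21). Col3a1 at 6000 ppm was at 0.58 (adjusted p = 0.16), Col5a2 at 0.45 (adjusted p = 0.33), and Col5a3 at 3000 and 6000 ppm at -1.04 and -0.78 (adjusted p = 0.14 and 0.26). For Col18a1 the value was -0.45, for Col13a1 -0.85 and for the Col3a1 trend 0.69 (adjusted p = 0.36, 0.11 and 0.28). In FFPE liver 10 of 11 calls remained, all but Col12a1 at 1500 ppm (log2 0.86, adjusted p = 0.066).

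Genes that fold, process and bind collagens were read from lists by role. At 6000 ppm in frozen liver, where 7.05% of all genes rose and 4.72% fell, 0 of 16 genes of collagen folding rose and 2 fell. These were P4hb, the shared subunit of prolyl hydroxylase, at -0.49 ± 0.15 and the isomerase Ppib at -0.59 ± 0.12. The list median was -0.15 beside -0.03 over all genes. Of 12 genes of procollagen processing and cross-linking 2 rose, Tgm2, a transglutaminase, at 0.63 ± 0.17 and Loxl2, a lysyl oxidase, at 0.62 ± 0.19. Among 8 genes of collagen breakdown 2 fell, the inhibitor Timp2 at -0.56 ± 0.13 and the membrane-bound metalloproteinase Mmp14 at -0.48 ± 0.14. Of 15 laminins and partners 2 rose, Lamb3 at 1.79 ± 0.30 and Nid2, which links laminin to type IV collagen, at 0.90 ± 0.26, and Lama3 fell by 0.99 ± 0.21. In FFPE liver Lamb3, Nid2 and Lama3 were called in the same directions, at 1.87 ± 0.35, 1.01 ± 0.27 and -0.97 ± 0.24. None of 6 collagen receptors and none of 14 genes of TGF beta signalling and response was called in frozen liver at this dose.

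Markers of the cells that make collagen were followed beside these results, at the same dose and shares of all genes (7.05% up and 4.72% down). The 11 stellate cell markers summed to 362 to 436 CPM in frozen controls and to 307 to 332 CPM at 6000 ppm (0 up and 1 down, Ecm1 at -0.74 ± 0.17). The 10 endothelial markers summed to 326 to 395 and 323 to 410 CPM (1 up) and the 11 Kupffer cell markers to 198 to 323 and 259 to 404 CPM (none called). The 6 portal fibroblast markers summed to 2.81 to 3.53 and 4.07 to 5.67 CPM (1 of 3 tested up, Eln at 1.6 ± 0.42). The 5 activated myofibroblast markers summed to 3.38 to 14 and 5.84 to 10.1 CPM (0 of 3 tested called), and 6 of 10 hepatocyte markers fell. No marker of these lists was at 0 in a whole dose group. In such bulk samples fewer cells of a type and less RNA per cell cannot be told apart, and the part of these markers in the collagen results was not tested.

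In frozen liver of DCA animals the collagens moved down together. At 3.5 g/L 16 of 27 fell, where 21.1% of all genes tested did, and 2 rose, where 21.9% did (43.0% of all genes called). The median log2 fold change of the 27 was -0.65, beside -0.02 over all genes, and 25 of 27 values were negative. At 1 g/L 5 fell and 0 rose (11.1% of all genes called, 7.01% down and 4.11% up). At 2 g/L 9 fell and 0 rose (29.2% of all genes called, 13.7% down and 15.5% up). Of these, 4 of the 5 and 8 of the 9 also fell at 3.5 g/L. The shares of the collagens that fell at these 2 doses were 18.5% and 33.3%. At 1 g/L 26 of 27 values were negative with a median of -0.37, and at 2 g/L 24 of 27 with a median of -0.38, beside -0.01 over all genes at each. A linear trend on dose was called for 15 down and 2 up (39.3% of all genes, 18.8% down and 20.5% up).

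Of the 9 tested fibrillar chains 6 fell at 3.5 g/L. Col1a2 stood at 46.7 to 98.3 CPM in the 6 controls (median 53.8) and at 28.3 to 52.7 CPM at 3.5 g/L (median 35.6), below every control in 5 of 6 livers (log2 -0.67 ± 0.18, adjusted p = 0.0043). Col3a1 stood at 140 to 227 CPM in controls (median 160) and at 87.6 to 162 CPM (median 122), with 5 of 6 below every control (log2 -0.49 ± 0.15, adjusted p = 0.0091). Col5a3 went from 9.04 to 18.4 CPM (median 13.4) to 3.21 to 10.4 CPM (median 5.85) (log2 -1.08 ± 0.28, adjusted p = 0.0033). In each of these 3 genes the treated livers lay low with 1 liver reaching into the control range. Col5a1, the chain type V collagen needs in nearly all of its trimers, fell by 0.56 ± 0.14 (adjusted p = 0.0027). It went from 25.9 to 37.2 CPM (median 29.5) to 13.9 to 24.8 CPM (median 20.6), and all 6 livers were below its controls. Col1a1 also fell (log2 -0.70 ± 0.28, adjusted p = 0.043), from 21.7 to 75.7 CPM in controls (median 24.5) to 14.4 to 31.6 CPM (median 19.6).

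A control liver, animal 5, lay far above the rest of its group for several of these genes, at 75.7 CPM for Col1a1, where the other 5 controls held 21.7 to 34.8, and at 98.3 CPM for Col1a2, where they held 46.7 to 58.5. Without it 14 collagens fell at 3.5 g/L and 2 rose. The log2 values were then -0.29 for Col1a1 (adjusted p = 0.30), -0.58 for Col16a1 (adjusted p = 0.099), -0.47 for Col1a2 (adjusted p = 0.019) and -0.39 for Col3a1 (adjusted p = 0.034). The Col1a1 call was also lost without any 1 of 5 other libraries (control 4 or animals 97, 99, 100 and 102 at 3.5 g/L). Col16a1, a FACIT chain at 1.87 to 4.36 CPM in controls, otherwise fell by 0.72 ± 0.27, and its call was also lost without any 1 of 5 (controls 3 and 4, animals 99, 100 and 102). Without control 5, 4 collagens fell at 1 g/L and 7 at 2 g/L.

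Col27a1, which fell under DEHP, also fell under DCA. Its frozen controls held 8.67 to 23.4 CPM (median 12.3), the livers at 1 g/L 7.31 to 14 (median 9.81), at 2 g/L 4.01 to 8.70 (median 5.40) and at 3.5 g/L 4.58 to 10.3 CPM (median 7.47). At 2 g/L 5 of 6 livers were below every control, against 4 of 6 at 3.5 g/L. The log2 fold changes were -0.47 ± 0.23 (adjusted p = 0.18), -1.12 ± 0.25 (adjusted p = 0.0016) and -0.89 ± 0.23 (adjusted p = 0.0032). The 3 livers at 2 g/L whose libraries held under 5000000 counts (animals 73, 74 and 75) had the lowest Col27a1, 4.01 to 4.10 CPM against 6.70 to 8.70 CPM in the other 3, the lowest Col18a1 and the highest Col12a1 of that dose. Without these 3 libraries Col27a1 fell at 2 g/L by 0.88 (log2 -0.88, adjusted p = 0.039) and Col18a1 by 0.46 (log2 -0.46, adjusted p = 0.021). The column headings also hold a further field, the letter L with a number, whose meaning is not given. This L field set the same 3 libraries apart from the other 3 at 2 g/L, so depth and the field cannot be told apart here.

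Of the 5 tested basement membrane chains 3 fell at 3.5 g/L. Col4a2 held 71.0 to 97.5 CPM in controls (median 84.5) and 44.0 to 64.8 CPM at 3.5 g/L (median 51.1), and Col4a1 116 to 146 CPM (median 135) and 76.4 to 108 CPM (median 97.4). All 6 livers lay below all controls for both genes, at log2 -0.71 ± 0.12 (adjusted p = 4.0e-05) and -0.51 ± 0.11 (adjusted p = 0.00048). The group means of Col4a2 were 84.8, 61.0, 74.2 and 51.9 CPM at 0, 1, 2 and 3.5 g/L. Those of Col4a1 were 133, 109, 122 and 92.9 CPM, so neither fell evenly with dose. Col4a5, a chain of the tissue-restricted type IV networks, held 7.47 to 15 CPM (median 11) in controls and 4.96 to 7.19 CPM (median 5.91) at 3.5 g/L, again without overlap (log2 -0.86 ± 0.15, adjusted p = 5.8e-05). The pair Col4a3 and Col4a4, 71 bases apart on chromosome 1, had medians near 1 CPM and was not called at any dose, with log2 fold changes of -0.80 ± 0.34 and -0.27 ± 0.34 at 3.5 g/L. The trend on dose was called for Col4a3 (-0.86 ± 0.33, adjusted p = 0.039) and lost without control 4 or 5 or animal 97 or 101 (adjusted p up to 0.138, log2 -0.61 to -0.83).

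**Figure D4:**
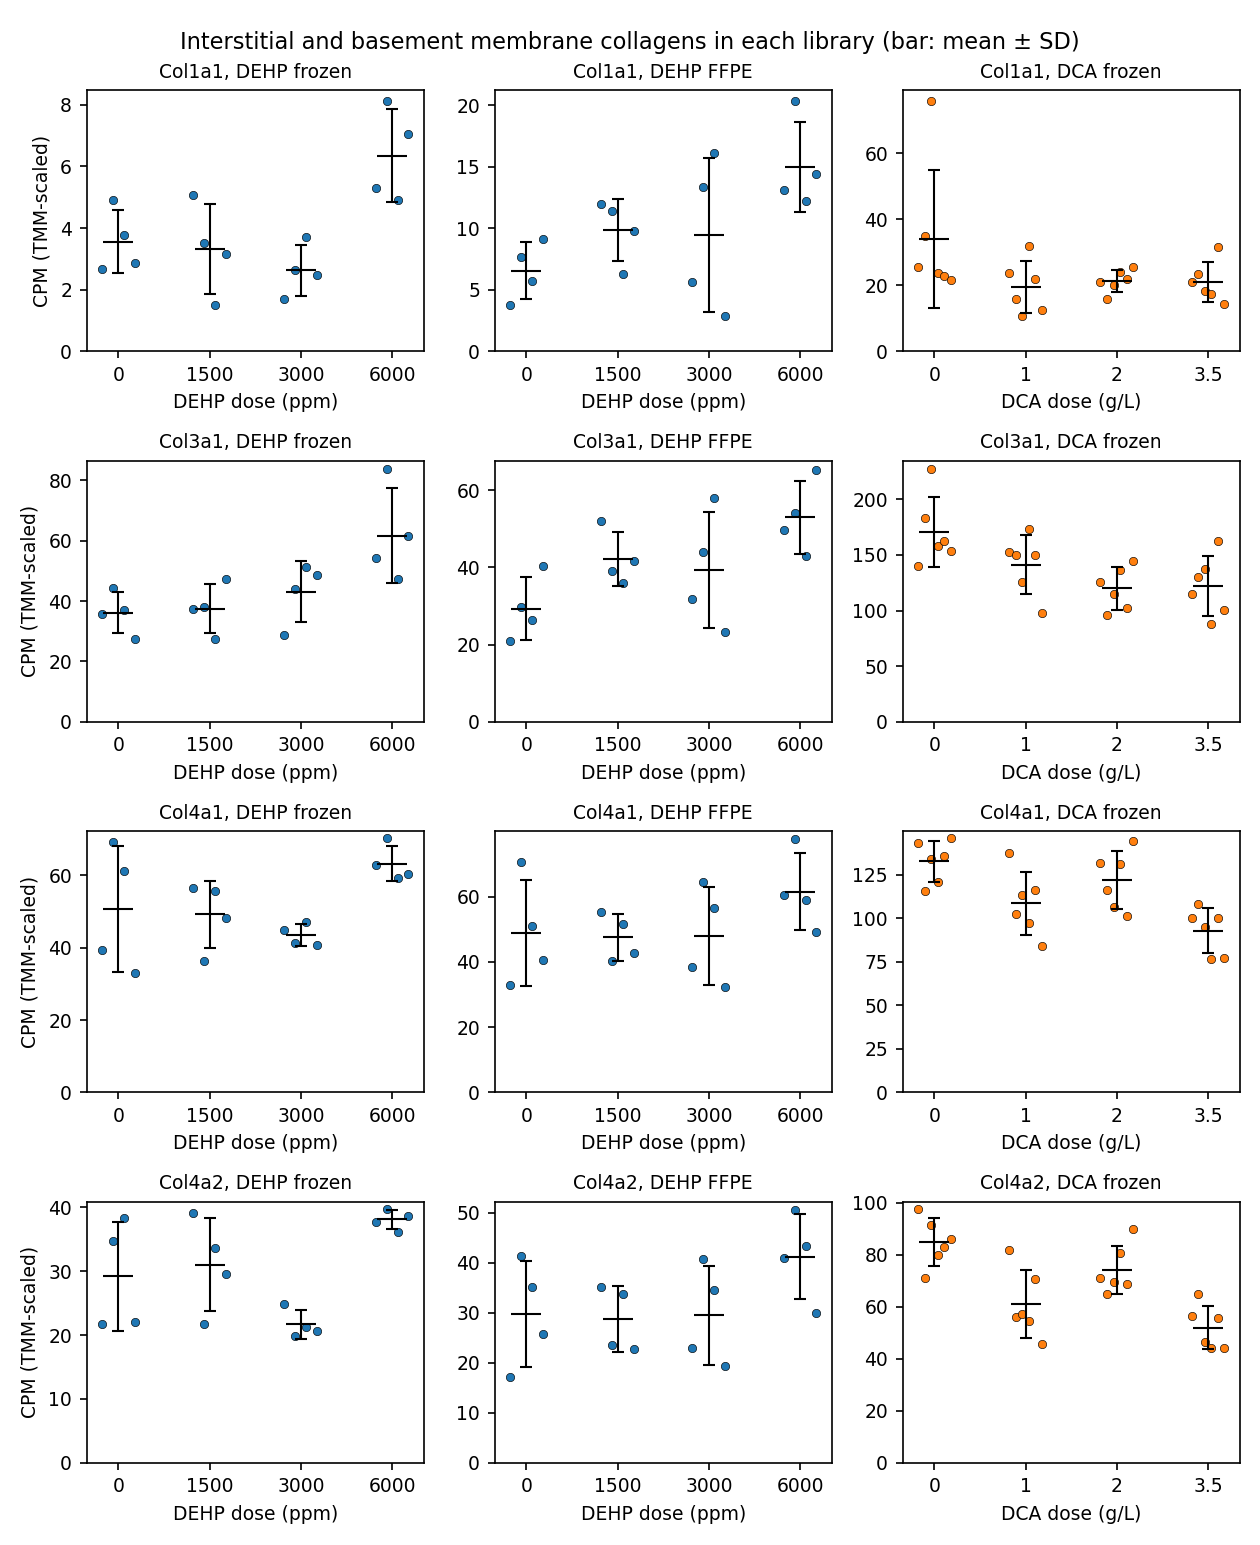
Level of Col1a1, Col3a1, Col4a1 and Col4a2 (rows, CPM) in every library by dose, in frozen DEHP, FFPE DEHP and frozen DCA liver (columns), 1 point a library with a bar at the group mean. Col3a1 at 6000 ppm DEHP lies above its controls, and Col4a1 and Col4a2 at 3.5 g/L DCA lie below theirs.

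Col18a1, the most abundant collagen message, gave the clearest separation. Its 6 controls held 934 to 1266 CPM (median 1146). The livers at 1 g/L held 587 to 992 CPM (median 699), at 2 g/L 569 to 874 (median 688) and at 3.5 g/L 535 to 750 CPM (median 646). At 2 and 3.5 g/L all livers lay below all controls, and at 1 g/L 5 of 6 did. The log2 fold changes were -0.64 ± 0.12, -0.69 ± 0.12 and -0.83 ± 0.12 (adjusted p = 0.0025, 0.00018 and 8.4e-06). The value at 2 g/L was -0.46 without the 3 shallow libraries. All controls were alike in the L field of the headings, and every liver below all controls differed from them in it. The liver at 1 g/L that reached into the control range, animal 49, had the controls' field. At 2 and 3.5 g/L dose and this field cannot be told apart. Col15a1, a multiplexin of vessel basement membranes, was called up at 3.5 g/L instead (log2 0.58 ± 0.23, adjusted p = 0.047), from 6.88 to 16.3 CPM to 9.22 to 20.6 CPM with overlap. That call was lost without any 1 of 13 of the 24 libraries (adjusted p up to 0.129, log2 0.46 to 0.60; controls 3, 4, 6 and 8, animal 49 at 1 g/L, 74 to 77 at 2 g/L, 98 to 101 at 3.5 g/L).

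Of the collagen VI chains, Col6a1 and Col6a2, partners in the same filament, fell by 0.69 ± 0.14 and 0.69 ± 0.21 (log2) at 3.5 g/L (adjusted p = 0.00039 and 0.0095), and Col6a5 by 0.72 ± 0.22 (adjusted p = 0.012), while Col6a3, the third chain of the common filament, was at -0.08 ± 0.11. Col6a1 went from 12 to 21.9 CPM (median 13.2) to 7.54 to 11.6 CPM (median 8.75) with no overlap. Col6a2 went from 6.74 to 18 CPM (median 8.46) to 5.23 to 8.80 CPM (median 5.39), and Col6a5 from 3.06 to 5.86 CPM (median 4.33) to 1.52 to 4.53 CPM (median 2.58), both with overlap. Control 5 was the highest control for Col6a1 and Col6a2. Without it Col6a1 was at -0.54 (adjusted p = 0.0012) and Col6a2 at -0.43 (adjusted p = 0.049), and the trend of Col6a2 was not called (-0.40, adjusted p = 0.072). Col14a1 fell by 0.27 ± 0.09, from 98.2 to 123 CPM (median 117) to 81.7 to 106 CPM (median 93.3) (adjusted p = 0.015). Its group means were 115, 134, 113 and 94.8 CPM at 0, 1, 2 and 3.5 g/L, so it did not fall evenly with dose. The low-abundance FACIT chain Col20a1, at 0.892 to 2.02 CPM in controls, fell by 0.76 ± 0.27 (adjusted p = 0.025, lost without control 4 or animal 99, 100 or 102, adjusted p up to 0.067, log2 -0.64 to -0.71). Col12a1 went the other way, as it did under DEHP. It held 3.77 to 7.92 CPM in controls (median 5.65) and 8.01 to 13.7 CPM (median 10.1) at 3.5 g/L, every liver above every control (log2 0.91 ± 0.17, adjusted p = 0.00013). At 1 and 2 g/L its log2 fold changes were -0.04 ± 0.18 and 0.30 ± 0.19, not called.

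At the lower DCA doses fewer chains passed. The 5 that fell at 1 g/L were Col18a1, Col4a2 (-0.47 ± 0.12), Col4a5 (-0.60 ± 0.15), Col13a1 (-0.63 ± 0.18) and Col1a2 (-0.61 ± 0.18). Col13a1 was not called without control 3 or animal 51 or 52 (adjusted p up to 0.063, log2 -0.57 to -0.60). Col1a2 was not called without control 5 or 6 or animal 50, 51 or 54 (adjusted p up to 0.103, log2 -0.41 to -0.62). Col13a1 was not called at 3.5 g/L (-0.37 ± 0.17, adjusted p = 0.088). The 9 at 2 g/L were Col27a1, Col18a1, Col6a1, Col6a2, Col4a5, Col1a2, Col3a1, Col5a3 and Col24a1, a minor fibrillar chain (-0.91 ± 0.32, adjusted p = 0.031). Without the 3 shallow libraries 6 of the 9 remained called, and the values were -0.42 for Col3a1, -0.61 for Col1a2 and -0.60 for Col5a3 (adjusted p = 0.12, 0.079 and 0.25). The calls of Col5a3 and Col24a1 at 2 g/L also depended on single libraries. For Col5a3 these were controls 3, 5, 6 and 7, animal 52 at 1 g/L and animals 73, 74, 75 and 78 (adjusted p up to 0.101, log2 -0.69 to -0.81), and for Col24a1 controls 5 and 8 and animals 76 and 77 (adjusted p up to 0.112, log2 -0.71 to -0.87). All frozen DCA libraries had 1 heading code except 2 at 1 g/L, and without those 2 the count at 1 g/L was 2. The further field of the headings, the letter L with a number, was the same in all controls. It differed from theirs in every liver at 2 and 3.5 g/L, so what it marks and the dose cannot be told apart for these. At 1 g/L it also differed from theirs in every liver but animal 49, so only that liver separates the field from this dose. Within 2 g/L it set the 3 shallow libraries apart from the rest.

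Among the partner genes at 3.5 g/L DCA, where 21.1% of all genes fell and 21.9% rose, more members fell than rose in 5 of the 6 lists given here, and the lists were not tested as sets. Of 16 genes of collagen folding and hydroxylation 9 fell and 1 rose (list median -0.36). Among those that fell were the lysyl hydroxylase Plod1 at -0.51 ± 0.05, P4hb at -0.59 ± 0.09 and Ppib at -0.73 ± 0.09, and the 1 that rose was Colgalt2, which adds galactose to collagen, at 0.83 ± 0.23. Of 12 genes of processing and cross-linking 7 fell and 0 rose, including the lysyl oxidase Loxl4 at -2.82 ± 0.31, the procollagen proteinase Bmp1 at -0.41 ± 0.08 and its enhancer Pcolce at -0.56 ± 0.12 (list median -0.49). Among 7 genes of breakdown 4 fell, with the gelatinase Mmp2 at -0.64 ± 0.11 and the collagen uptake receptor Mrc2 at -0.75 ± 0.23, and 1 rose, the protease Ctsk at 0.65 ± 0.26. Of 15 laminins and partners 8 fell and 1 rose: Agrn, a heparan sulfate proteoglycan, was at -1.13 ± 0.11, Lama3 at -1.88 ± 0.24 and Lamb3 at 1.81 ± 0.24. Of 14 genes of TGF beta signalling and response 5 fell, including Tgfbi, a matrix protein, at -0.55 ± 0.08 and Ctgf at -1.23 ± 0.18. Of 6 collagen receptors 1 rose, Itga10 at 0.71 ± 0.19, and 1 fell, Ddr2 at -0.28 ± 0.09.

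Markers of liver cell types were followed at this dose too, where 21.1% of all genes fell and 43.0% were called. The 11 stellate markers summed to 460 to 575 CPM in controls and 386 to 449 CPM at 3.5 g/L (5 of 11 fell, 0 rose). The 10 endothelial markers summed to 494 to 555 and 423 to 471 CPM (5 fell, 0 rose), and the 11 Kupffer cell markers to 319 to 438 and 170 to 259 CPM (9 fell, 0 rose). Of 10 hepatocyte markers 7 fell and 1 rose. The sums of portal fibroblast markers (10.2 to 22.8 and 8.90 to 16.6 CPM), activated myofibroblast markers (7.55 to 19 and 8.70 to 17.5 CPM) and bile duct markers (27.3 to 36.0 and 25.2 to 37.8 CPM) overlapped. No marker of these lists was at 0 in a whole dose group, and their part in the collagen results was not tested.

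The effects of the top doses were then set against each other in 1 fit of frozen libraries, as the DEHP fold change at 6000 ppm minus the DCA fold change at 3.5 g/L. The chemicals differ in dose, route, animals and year, so this describes these 2 treatments only. Of 29 collagens tested 11 differed, where 13.3% of all genes did. Of these, 10 were more positive under DEHP, where 6.48% of all genes were, and 1 more negative, where 6.85% were. The differences were 1.53 ± 0.45 for Col1a1, 1.24 ± 0.31 for Col1a2, 1.27 ± 0.26 for Col3a1, 1.10 ± 0.21 for Col4a2, 0.84 ± 0.21 for Col4a1, 1.53 ± 0.29 for Col4a5 and 1.06 ± 0.27 for Col6a1 (adjusted p = 0.020, 0.0071, 0.00098, 0.00068, 0.0062, 0.00055 and 0.0069). Col27a1 was the 1 collagen more negative under DEHP, by -1.62 ± 0.41 (adjusted p = 0.0076). Col5a3 and Col12a1 moved in the same direction under both at these doses. Their differences were 0.18 ± 0.41 (adjusted p = 0.81) and 0.83 ± 0.30 (adjusted p = 0.060). Neither was called, which does not show that the effects were equal. Without animal 44A at 6000 ppm 7 collagens differed, and without control 5 of DCA 9 did.

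**Figure D5:**
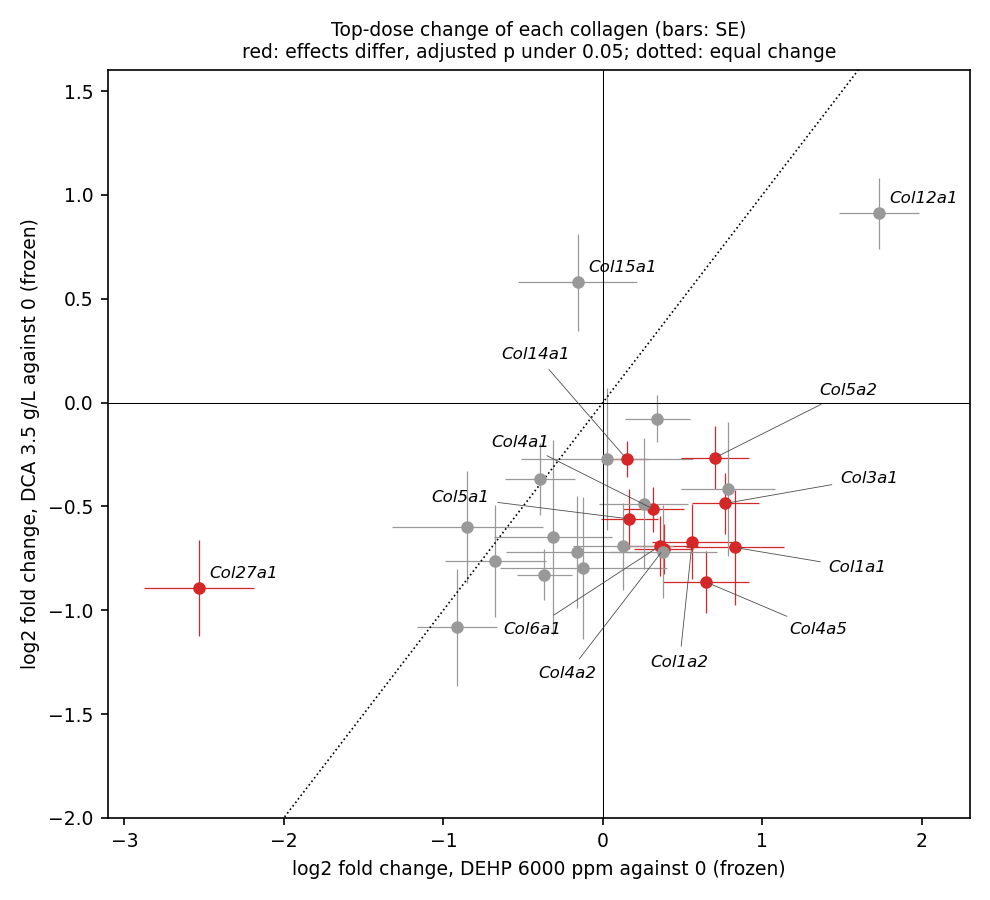
Log2 fold change of each collagen in frozen liver at 6000 ppm DEHP (horizontal axis) and at 3.5 g/L DCA (vertical axis). Bars are 1 SE, and points are red where the effects differed at an adjusted p under 0.05. Col27a1 lies below zero on both axes, Col12a1 above zero on both, and Col1a1, Col3a1 and Col4a2 above zero for DEHP and below zero for DCA.

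Many collagens differed between FFPE and frozen liver, at a share below that of all genes, while no difference in the DEHP effect between preparations was detectable. Over the 16 DEHP animals, paired by animal, 14 of 28 tested collagens were higher in FFPE, where 32.9% of all genes were, and 2 lower, where 31.3% were. In all 57.1% of the collagens were called and 64.2% of all genes. Col1a1 was higher by 1.44 ± 0.13 (log2, adjusted p = 2.8e-09) and in 16 of 16 animals, Col27a1 by 0.85 ± 0.07 (adjusted p = 9.2e-10) and in 16 of 16, Col15a1 by 0.65 ± 0.11 in 16 of 16, and Col5a3 by 0.54 ± 0.07 in 15 of 16. Col18a1 was higher by 0.51 ± 0.08 in 13 of 16 animals. Col14a1 was lower by 0.42 ± 0.05, in all 16 animals (adjusted p = 3.8e-08), and Col12a1 by 0.33 ± 0.08 in 14 of the 16. Col3a1 was at -0.03 ± 0.10 and Col4a1 at 0.08 ± 0.06. For the difference of the 6000 ppm effect between preparations 0 of 28 collagens were called by edgeR and 0 by DESeq2 (0% of all genes by edgeR), 1 of 28 at an unadjusted p under 0.05, Col12a1 at -0.48 ± 0.22. For Col27a1 that difference was -0.05 ± 0.22 and for Col3a1 0.13 ± 0.28.

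In FFPE DCA liver, 10 collagens could be tested for dose and 0 were called by edgeR at 1, 2 or 3.5 g/L or for the trend, where 0.126%, 0.335%, 0.293% and 0.356% of all genes were. At an unadjusted p under 0.05 there were 0, 2, 1 and 1. The counts over all collagens in a library ran from 734 to 9371 (median 4415) in controls but from 1 to 598 (median 48) at 2 g/L and from 17 to 674 (median 91.5) at 3.5 g/L. A count of 0 there allows up to 3 counts, for counting error only. That is 4.59 to 27.4 CPM on the plain totals of the libraries at these 2 doses, without the TMM scaling of the other CPM values. Most collagens were thus not detectable at this depth. For Col18a1 the log2 fold change at 3.5 g/L was -1.59 ± 0.67 (adjusted p = 0.56), beside a median of -0.68 over all genes, and for Col27a1 0.30 ± 1.23. All controls shared 1 heading code with 3 livers at 1 g/L and the other livers had another, so heading code and dose cannot be told apart at the upper doses. Against frozen liver of the same animals 11 of 23 collagens were lower and 1 higher (60.6% of all genes called, 59.4% lower and 1.21% higher), relative to a median of -1.54 over all genes and -1.38 over the collagens. With DESeq2's size factors the median over all genes was -0.63 and 2 collagens were higher and 0 lower, so no direction is given for this comparison. The 1 gene that was higher, Col10a1, rested on 44 counts in 8 FFPE libraries.

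The 14 collagens tested for dose in no set included Col4a6, Col6a4, Col7a1, Col8a2, Col11a1, Col17a1, Col19a1, Col22a1, Col23a1 and Col28a1. In frozen DEHP liver the 12 untested collagens of that table had 1 to 122 counts each over all 16 libraries (median 42). Col17a1, a hemidesmosome chain of squamous epithelium, had the most, and 84 of its counts were in 1 control library (animal 45C, 3.12 CPM). In FFPE DEHP liver the 12 had 3 to 110 counts (median 40), and Col25a1, a transmembrane chain, had the most. 

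Col25a1 was the 1 of these 12 that was called for a DEHP dose when no filter on low counts was applied. Its frozen controls held 0.371, 0.837, 0.917 and 1.40 CPM, and the livers 0.0457 to 0.251 CPM at 1500 ppm, 0.159 to 0.288 at 3000 ppm and 0.110 to 0.269 at 6000 ppm. In FFPE liver the controls held 0.490, 0.830, 1.24 and 1.44 CPM and the 12 treated livers 0.0722 to 0.438 CPM. No treated liver overlapped the controls in either preparation, on 73 counts in the 4 frozen controls and 12, 18 and 16 at the doses, and on 69 against 16, 14 and 11 in FFPE liver. Without a filter the log2 fold changes were -2.68 ± 0.54, -2.08 ± 0.51 and -2.24 ± 0.52 in frozen liver (edgeR, adjusted p = 0.0080, 0.015 and 0.011), where 4.18%, 9.73% and 7.89% of all genes were called. In FFPE liver they were -1.90 ± 0.52, -2.14 ± 0.53 and -2.50 ± 0.54 (adjusted p = 0.049, 0.018 and 0.0069), where 3.55%, 5.96% and 7.91% were. 

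In frozen DCA liver 13 collagens had 7 to 113 counts each over 24 libraries. Without a filter Col22a1 was called at 3.5 g/L (log2 -3.44 ± 1.13, adjusted p = 0.021, 32.0% of all genes called), on 19 counts in controls, 16 of them in control 5, and 1 at that dose. For the trend without a filter Col22a1, Col9a2 and Col7a1 were called (30% of all genes). Col9a2 rested on 4 counts in controls and 0 at 2 and 3.5 g/L, and Col7a1 on 21 counts in controls and 50 at 3.5 g/L (log2 1.34 ± 0.48, adjusted p = 0.032). No other collagen left out by the filter was called for a dose in frozen or FFPE DEHP or frozen DCA liver.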

How the data were processed

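Paired frozen and FFPE liver libraries were made with a stranded total RNA kit after removal of ribosomal RNA, per the labels' protocols. The submitters' processing notes name CASAVA, STAR 2.4 and RSEM as tools and mm10 as the genome build. The deposited gene tables hold RSEM expected counts, which the authors did not normalise, and FPKM values that the authors made, which divide by library size and gene length. A second set of deposited count tables served as an alternative, and the tool behind it is not given in the sources used here. All library columns were matched by animal, preparation and dose, and 0 columns of per-sample values were left unmapped.

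Expected counts were rounded to whole numbers, filtered with filterByExpr (minimum count 10), scaled by TMM and fitted with edgeR 4.0.16 (R 4.3.3), 1 quasi-likelihood fit for each chemical and preparation over its 4 dose groups, with Benjamini-Hochberg adjustment over all genes tested. Errors of log2 fold changes are standard errors from the F statistic. FFPE and frozen libraries were compared with animal as a block, since same-numbered libraries come from 1 animal. Their deviations from the dose group means correlated at 0.0176 to 0.621 over 14065 genes for the 16 DEHP animals (median 0.369, 14 over 0.1), and at -0.0104 to 0.168 over 11526 genes for the 24 DCA animals (median 0.0247, 4 over 0.1). Dose groups were compared without a block, since different doses are different animals, so p-values cover the spread between animals.

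Collagen families and partner and marker gene lists were chosen with earlier results of these data known, and no list was tested as a set. Genes named are Col1a1, Col1a2, Col3a1, Col4a1, Col4a2, Col5a1, Col6a1, Col14a1, Col15a1, Col18a1 and Col27a1, and every collagen called at a dose. Of each partner list at most the 3 called genes of smallest adjusted p are named. Other collagens, and Colgalt2, Ctsk, Ecm1 and Eln, were named after their values were seen. A result for 1 partner gene is not reported here. Promoter windows and gene positions are from RefSeq (GRCm38.p6) and GENCODE on the same build. The fits were tested on simulated counts with known changes. Alternatives were DESeq2 1.42.0, its size factors, no and stricter filters (1 CPM and 10 counts), an adjusted p under 0.01, the second tables, fits of only the groups compared, no replicate block, and leaving out 1 library at a time. The code that opens a column heading and the depth of DCA libraries were added after seeing the data for some comparisons.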

Additional observations from a re-analysis of the deposited data

Results flagged for a closer look

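Within the dose groups of frozen and DEHP FFPE liver, 252 sets of values of the named collagens were checked for a library that stands far from the rest, and 10 did; chance flags about 1 in 20 groups. Control animal 5 of frozen DCA liver was the high library for 4 genes, Col1a1 at 75.7 CPM (others 21.7 to 34.8), Col1a2 at 98.3 CPM (others 46.7 to 58.5), Col6a1 at 21.9 CPM (others 12 to 14.8) and Col6a2 at 18 CPM (others 6.74 to 8.94), and the values at 3.5 g/L DCA without it stand beside those results. Animal 49 at 1 g/L DCA was high for Col18a1, at 992 CPM (others 587 to 721), and for Col5a3, at 23.9 CPM (others 7.2 to 10.8), and without it 9 collagens fell at that dose in place of 5. Its Col18a1 lay within the control range (934 to 1266 CPM) and its Col5a3 above it (9.04 to 18.4 CPM). Animal 49 was the only treated frozen DCA liver with the L field of the controls' column headings. Without it, that field and dose cannot be told apart at 1 g/L. The other 4 were Col13a1 in FFPE liver of animal 72B at 1500 ppm DEHP, at 4.22 CPM (others 2.28 to 2.32), Col16a1 in animal 78 at 2 g/L DCA, at 4.02 CPM (others 1.56 to 2.46), Col20a1 in DCA control 7, at 0.892 CPM (others 1.64 to 2.02), and Col6a2 in animal 101 at 3.5 g/L, at 8.80 CPM (others 5.23 to 6.36).

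The effects of 6000 ppm DEHP and 3.5 g/L DCA in frozen liver differed for 11 collagens by the test of the difference. Those more positive under DEHP were Col1a1 by 1.53, Col4a5 by 1.53, Col3a1 by 1.27, Col1a2 by 1.24, Col4a2 by 1.10, Col6a1 by 1.06, Col5a2 by 0.98, Col4a1 by 0.84, Col5a1 by 0.74 and Col14a1 by 0.44 on the log2 scale. Col27a1 was the 1 more negative under DEHP, by -1.62.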

How the results depend on the processing

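No collagen called for a dose or trend reversed its direction under an alternative. Over all alternatives that left out 1 library, 1471 of 1576 calls of single collagens remained, and 72 of 74 with DESeq2, 74 with its size factors, 70 without a filter, 70 with the second count tables, 43 of 53 with only the groups compared. In frozen DEHP liver the counts of called collagens at 1500, 3000 and 6000 ppm and for the trend (2, 5, 5 and 2) became 1, 3, 2 and 1 at an adjusted p under 0.01 and 1, 1, 2 and 0 with the heading code as a term. With only the groups compared they were 1 at 1500 and 3 at 6000 ppm, and the trend gave 5 with DESeq2. In FFPE DEHP liver 1500 ppm (2) gave 0 under 0.01, 1 with the second table and 1 with the heading code as a term, and the trend (2) gave 1 under 0.01 and 5 with DESeq2. In frozen DCA liver 1 g/L (5) gave 1 under 0.01, 3 with only the groups compared and 2 within 1 heading code, 2 g/L (9) gave 6 under 0.01 and 6 without shallow libraries, 3.5 g/L (18) gave 12 under 0.01, and the trend (17) gave 10 under 0.01. The FFPE DCA trend (0) gave 3 without a filter. Of the settings named here, those of heading code and depth were tried after seeing the data, except the code in frozen DEHP liver.

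Without the replicate block, FFPE against frozen called 14 collagens in place of 16 for DEHP and 6 in place of 12 for DCA; the difference of the DEHP effect stayed at 0. The DCA count was 7 under 0.01, 2 with DESeq2, 2 with its size factors and 1 with the animals of the controls' heading code. The DEHP against DCA difference (11) gave 8 under 0.01.

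Leaving out 1 library at a time, called collagens ranged from 1 to 3, 3 to 6, 2 to 6 and 1 to 6 (frozen DEHP, doses and trend), 0 to 3, 3 to 4, 3 to 6 and 2 to 4 (FFPE DEHP), 3 to 9, 7 to 10, 14 to 18 and 15 to 18 (frozen DCA), 0 to 0 (FFPE DCA), 13 to 16 and 9 to 15 (FFPE against frozen, DEHP and DCA), 0 to 0 (DEHP effect by preparation) and 7 to 14 (DEHP against DCA). Counts moved by over 1.5 times without 32A (frozen DEHP at 1500 and 6000 ppm, trend), 63A (3000 and 6000 ppm, trend), 44A or 8C (6000 ppm, trend), 75A, 67C or 29B (trend), any control, 3A, 40A or 60A (FFPE DEHP at 1500 ppm), 9A or 29B (FFPE trend), 49 or 51 (1 g/L DCA) and 44A (DEHP against DCA). The FFPE DCA set, mostly under 5000000 counts a library, limits every statement on it.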
